A study of Mus musculus with 66 samples.

Results

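Antigen presentation and interferon response genes were followed in the RNA and chromatin of mouse small intestinal organoids. The set took every transcript of the RNA table whose gene symbol begins with H2-, Ifi, Oas or Gbp. It added the numbered Stat, Irf and Tap genes and B2m, Tapbp, Cd74, Isg15, Jak1 and Ifngr1. The rule reads symbols only, though it was set with earlier results of these data known. This gave 64 transcripts of 59 gene symbols, of 9481 transcripts in all. Ciita and Nlrc5, the coactivators of class II and class I transcription, were also looked for and have no row. A transcript is listed only if its protein had been quantified by the authors, and some interferon genes have no row.

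The organoids carried the Lgr5 GFPDTR/+ allele, on a background of C57BL/6 and 129/ola, and organoids of this kind are grown from the crypt epithelium of the gut. ENR cultures received EGF, Noggin and R-Spondin-1. CV cultures, meant to enrich stem cells, received ENR with 3 µM CHIR99021 and 1 mM valproic acid for 5 days. EN cultures, meant to lose stem cells and gain enterocytes, were kept for 2.5 days in ENR from which R-Spondin-1 had been left out. CV differed from ENR by 2 agents at once, and EN from CV by these agents, by R-Spondin-1 and by time in culture, so their shares cannot be told apart. RNA and ATAC-seq had 4 libraries per culture, and Hnf4g binding had 1. For the 3 histone marks the labels list 4 or 5 libraries per culture, of which 3 have a column in the score table, and the other 10 were not analysed here. The labels do not say that libraries came from separate cultures, and p-values measure only the spread between these libraries.

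Class I molecules consist of a heavy chain and the light chain B2m, and show peptides from inside the cell on nearly all cell types. The peptides are cut by the proteasome and pumped into the endoplasmic reticulum by Tap1 and Tap2, where Tapbp (tapasin) helps load them. Class II molecules show peptides from endosomes and are typical of professional antigen-presenting cells, and intestinal epithelium can also make them under interferon gamma. Interferons act through receptors such as Ifngr1 and kinases such as Jak1 on Stat factors. With Irf factors, these drive the Oas, Gbp, Ifit, Ifitm and Isg15 genes, which limit viruses and other intracellular microbes.

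Promoter sequences show the elements through which these factors are known to act. For 5 members that mark the range of responses described below, the 250 bases before the transcription start are given 5′ to 3′ on the sense strand (RefSeq, build GRCm38.p6). For Irf1 the more upstream of 2 listed starts is shown. Capitals mark an interferon-stimulated response element (ISRE, letters GAAANNGAAA) in B2m, Isg15 and Ifitm2, and a gamma-activated site (GAS, letters TTCNNNGAA) in Irf1. The H2-T3 window held neither set of letters. The windows lie at chr2:122147437-122147686 (plus strand) for B2m, chr4:156200819-156201068 (minus strand) for Isg15 and chr11:53769764-53770013 (plus strand) for Irf1. Those of Ifitm2 and H2-T3 lie at chr7:140955962-140956211 and chr17:36190152-36190401, both on the minus strand.
B2m: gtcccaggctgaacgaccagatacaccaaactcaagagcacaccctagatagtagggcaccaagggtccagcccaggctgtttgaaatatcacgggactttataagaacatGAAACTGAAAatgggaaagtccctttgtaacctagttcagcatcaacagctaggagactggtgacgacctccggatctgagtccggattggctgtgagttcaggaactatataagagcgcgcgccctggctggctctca
Isg15: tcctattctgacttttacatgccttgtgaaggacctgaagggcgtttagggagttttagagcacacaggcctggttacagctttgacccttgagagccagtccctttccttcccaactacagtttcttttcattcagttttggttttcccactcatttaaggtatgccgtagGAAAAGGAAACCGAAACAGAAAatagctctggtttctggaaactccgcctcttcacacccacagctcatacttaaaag
Irf1: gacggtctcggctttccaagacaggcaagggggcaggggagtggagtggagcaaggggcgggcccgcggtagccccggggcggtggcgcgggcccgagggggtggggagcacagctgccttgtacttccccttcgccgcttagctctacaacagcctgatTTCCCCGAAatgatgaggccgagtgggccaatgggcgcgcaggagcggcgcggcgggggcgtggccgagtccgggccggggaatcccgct
Ifitm2: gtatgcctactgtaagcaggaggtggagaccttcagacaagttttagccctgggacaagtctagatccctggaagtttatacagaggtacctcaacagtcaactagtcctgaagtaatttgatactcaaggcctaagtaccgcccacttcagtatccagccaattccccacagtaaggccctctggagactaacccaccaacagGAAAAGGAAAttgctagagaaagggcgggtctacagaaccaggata
H2-T3: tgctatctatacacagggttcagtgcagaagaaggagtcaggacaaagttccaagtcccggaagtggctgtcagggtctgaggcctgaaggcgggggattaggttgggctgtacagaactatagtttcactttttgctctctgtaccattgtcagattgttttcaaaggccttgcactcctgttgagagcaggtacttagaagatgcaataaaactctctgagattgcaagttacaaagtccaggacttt

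The ISRE began 139 bases before the start of B2m and 46 bases before that of Ifitm2, and the GAS of Irf1 began 90 bases before its start. In Isg15 the capitals join 3 overlapping ISRE matches. Promoters of 300 bases, from 250 before to 50 after the start, were listed for 46 of the 59 member genes, and both strands were searched. The ISRE letters occurred in 18 of these 46 genes (39.1%), against 3.44% of all 32841 promoters. The GAS letters occurred in 9 (19.6%), against 8.30% of all. The inverted CCAAT box ATTGG, an element of many MHC promoters, occurred in 26 (56.5%), against 37.4% of all. A member gene counted when any of its promoters matched (54 promoters for the 46 genes), while the shares of all are per promoter, so the units differ. Ifit1 and Ifit1bl2 also share the bases of their ISRE matches. A match describes letters and not a bound site. Only these exact letters were searched, so a promoter without a match may still hold a variant of the element.

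RNA levels are given as CPM, counts scaled to a common library total, after TMM scaling, which adjusts for composition. Calls were made at an adjusted p under 0.01 with edgeR's quasi-likelihood test over all 9288 transcripts with a count in at least 4 of the 12 libraries. These libraries held 5630951 to 8859744 counts outside the spike-ins, and 3 counts, taken as the smallest that show a transcript, were worth 0.361 to 0.642 CPM. Of the 64 member transcripts 63 were tested, and a second Cd74 transcript (NM_001042605.1) was too low. The libraries matched their labels in part. Summed CPM of 5 enterocyte markers ran from 9351 to 11505 in EN, from 3375 to 3737 in CV and from 1694 to 1949 in ENR. Summed CPM of 5 stem cell markers fell to 36.0 to 40.1 in EN, but was 457 to 518 in CV and 1708 to 1851 in ENR. Most of this gap was Olfm4, and 4 of the 5 stem cell markers were lower in CV than in ENR. From CV to EN all 4 goblet, 3 enteroendocrine and 2 tuft cell markers with a test also rose. Of 3 stromal markers only Vim was called, going from 2.96 ± 0.309 to 23.3 ± 3.11 CPM (SD, n = 4), while Col1a1 averaged 0.850 and 0.179 CPM and Col1a2 0.0337 and 0.0335. The part of these markers in the members' changes was not tested. Epithelial markers stood at 6776 to 7662 CPM in every library. In such mixed cultures, fewer cells of a type and less RNA per cell cannot be told apart.

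From CV to EN, 43 of the 63 member transcripts changed, 31 up and 12 down. Over all transcripts 76.4% changed, 35.2% up and 41.2% down, so that the members changed no more often than others but more of them rose. The median log2 fold change was 0.48 over the members and -0.08 over all transcripts. At least 2-fold, 17 rose and 7 fell, where all transcripts gave 15.2% and 20.1% (35.4% in all). Against ENR, EN was higher in 33 members and lower in 6, with 72.7% of all transcripts called, 35.5% higher and 37.2% lower. The median was 0.72 over the members and -0.01 over all. At least 2-fold, 18 were higher and 4 lower, with 13.1% and 17% of all (30.1% in all). CV was higher than ENR in 26 members and lower in 14, with 60% of all called (30.2% and 29.8%), and the medians were 0.18 and -0.01. At least 2-fold, 11 were higher and 7 lower, with 6.74% and 6.17% of all (12.9% in all). The 3 comparisons share libraries in pairs. The split from CV to EN depends on scaling: with spike-in scaling 19 members rose and 13 fell, on log2(TPM + 1) 22 rose and 16 fell, and on the authors' mRNA copies 37 rose and 5 fell. These shifted the median of all transcripts to -0.49, -0.34 and 0.62, and 46, 47 and 38 of the 63 members lay at or above that median. Between EN and ENR, spike-ins gave 17 higher and 7 lower (median of all -0.52) and mRNA copies 48 and 2 (0.88). At least 2-fold these were 7 and 5, and 42 and 2. Between CV and ENR, mRNA copies gave 21 higher and 4 lower (0.20). Of changes of at least 2-fold from CV to EN, mRNA copies gave 30 up and 5 down.

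**Figure D1:**
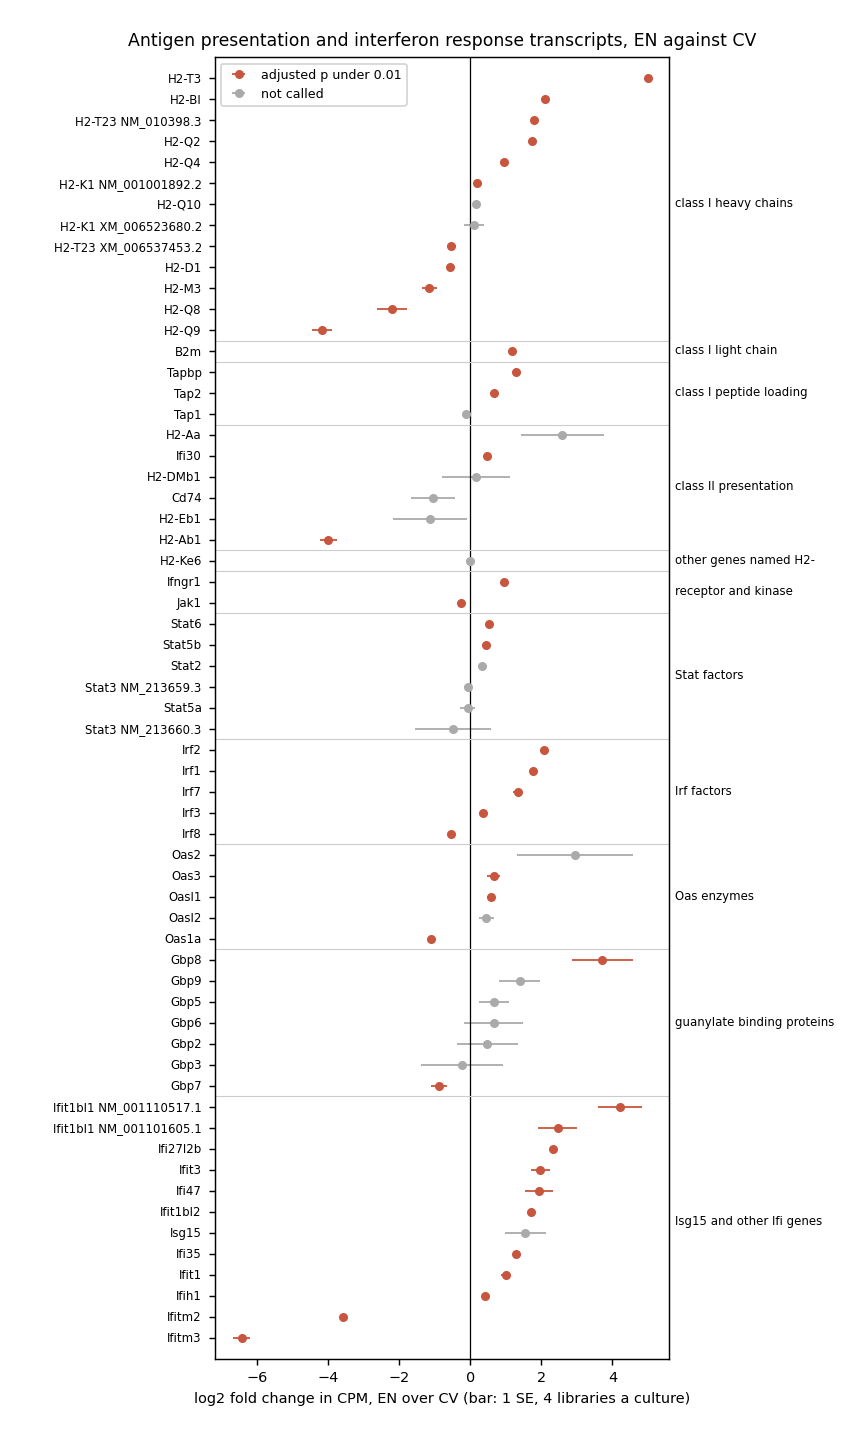
Log2 fold change in CPM from CV to EN of 61 of the 63 tested transcripts, grouped by role, with bars of 1 SE (4 libraries per culture). Coloured points have an adjusted p under 0.01, 29 to the right of 0 and 12 to the left, and the class I heavy chains span from H2-T3 at 5.01 to H2-Q9 at -4.18.

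The class I heavy chains moved apart between CV and EN. Of 13 transcripts, 6 rose, 5 fell and 2 were not called. H2-K1, a classical heavy chain and by TPM, which is set per transcript length, the most abundant member with a mean of 907 TPM, measured 1103, 1136, 1123 and 1109 CPM in CV, 508, 476, 478 and 498 in ENR and 1267, 1293, 1235 and 1266 in EN. The ENR libraries lay below all others, and EN was above CV by a log2 fold change of 0.18 ± 0.03 (SE, adjusted p = 6.38e-05). This small rise turned to -0.24 with spike-in scaling (adjusted p = 0.18) and to -0.14 on log2(TPM + 1) (adjusted p = 3.66e-04). H2-D1, the other classical heavy chain, measured 879.7, 769.9, 771 and 691 CPM in CV, 296, 279.6, 263 and 253 in ENR and 583, 569.8, 505 and 434 in EN. No EN library reached the lowest CV library, and H2-D1 fell by 0.57 on the log2 scale (SE 0.09, adjusted p = 1.92e-05), though it stood at 0.27 on mRNA copies (adjusted p = 0.445). Against ENR both classical chains were higher in EN and in CV, with log2 fold changes of 0.94 to 1.51.

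H2-Q2, a heavy chain of the Qa region, rose. It measured 295, 295, 286 and 257 CPM in CV, 134, 121, 127 and 134 in ENR and 946, 978, 930.3 and 912 in EN. EN exceeded CV by 1.73 ± 0.05 on the log2 scale (SE, adjusted p = 2.47e-14). H2-Q2 made up 11% of all class I heavy chain CPM in CV, 10.6% in ENR and 25.9% in EN, while H2-D1 went from 30.2% in CV and 22.5% in ENR to 14.4% in EN. H2-Bl rose from 36.8 ± 2.36 to 159 ± 7.84 CPM (SD, n = 4) from CV to EN, with 22.1 ± 1.21 in ENR.

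H2-T3, the thymus leukaemia antigen known from intestinal epithelium, rose the most of all members. It measured 4.18, 4.54, 4.11 and 3.98 CPM in CV, 26.4, 20.9, 28.1 and 30.3 in ENR and 142, 131, 133 and 135 in EN. The cultures did not overlap, and the order ran from CV through ENR to EN. EN exceeded CV by 5.01 ± 0.10 (SE, adjusted p = 9.75e-16) and ENR by 2.35 ± 0.08 in log2 fold change. With the size factors of DESeq2, with spike-ins, on log2(TPM + 1) and on mRNA copies, the rise over CV lay between 4.33 and 5.57. This order differed from that of most heavy chains, since CV was higher than ENR in 10 of the 13 transcripts and the median of the 13 was 1.19.

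H2-T23 (Qa-1), which binds receptors of natural killer cells, had a pair of transcripts that went different ways. The first (NM_010398.3) measured 96.9, 88.4, 89.2 and 72.1 CPM in CV, 125, 110.1, 113 and 107 in ENR and 304, 307, 287 and 293 in EN. The second (XM_006537453.2) measured 21.6, 23, 22.1 and 18.6 CPM in CV, 11.4, 13.6, 12 and 12.3 in ENR and 15.4, 12.6, 18.6 and 12.1 in EN. From CV to EN the first rose by 1.78 ± 0.07 and the second fell by 0.54 on the log2 scale (SE 0.13, adjusted p = 0.00105), though the second stood at 0.19 on mRNA copies. The second H2-K1 transcript (XM_006523680.2) averaged 64.0 ± 16.3 CPM in CV, 24.4 ± 10.3 in ENR and 67.7 ± 27.8 in EN (SD, n = 4), and was not called from CV to EN (adjusted p = 0.758).

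The Qa chains also split. H2-Q4 rose from 66.6 ± 10.5 CPM in CV over 81.3 ± 4.77 in ENR to 128 ± 15.9 in EN, and H2-Q10 was not called from CV to EN, with 94.5 ± 7.13 in CV, 37.2 ± 3.64 in ENR and 106 ± 8.02 in EN (adjusted p = 0.0463). H2-Q9 and H2-Q8 fell. H2-Q9 measured 15.2, 13.7, 12.2 and 10.6 CPM in CV, 1.79, 1.47, 2.28 and 1.76 in ENR and 0.536, 0.856, 1.25 and 0.288 in EN, a fall of 4.18 on the log2 scale. H2-Q8 measured 4.58, 4.94, 4.24 and 4.22 CPM in CV, 1.41, 0.327, 0.152 and 0.503 in ENR and 1.61, 1.07, 0.535 and 0.576 in EN. H2-M3, which presents formylated peptides, fell from 6.13 ± 0.729 to 2.73 ± 0.634 CPM.

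Values of single heavy chains are uncertain, because near-identical copies share reads: their counts were not whole numbers in 7 to 12 of the 12 libraries, where B2m and H2-Ab1 had whole counts in all. The 13 transcripts were therefore also summed to 1 value, a choice made after seeing the data. The sum was 2399 to 2706 CPM in CV, 1195 to 1261 in ENR and 3476 to 3774 in EN. The log2 fold change of the sum was 0.50 ± 0.04 from CV to EN, 1.59 ± 0.04 from ENR to EN and 1.09 ± 0.04 from ENR to CV (SE, n = 4 each, adjusted p = 1.44e-08, 2.04e-14 and 7.98e-12).

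**Figure D2:**
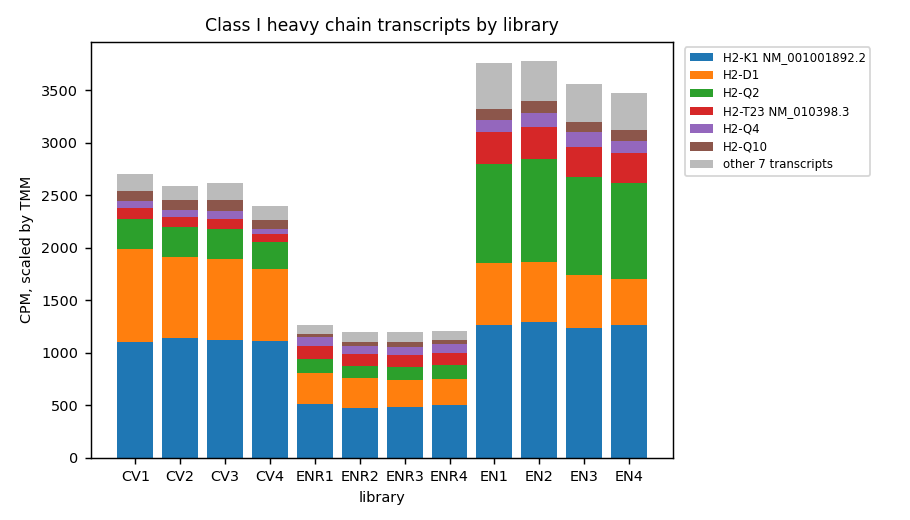
CPM of the class I heavy chain transcripts stacked for each of the 12 libraries, with the 6 most abundant in colour and the other 7 in grey. Bars reach 1195 to 1261 in ENR, 2399 to 2706 in CV and 3476 to 3774 in EN, and the H2-Q2 part is widest in EN.

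B2m, the light chain that every class I molecule needs, measured 204, 212, 199 and 181 CPM in CV, 145, 149.6, 147 and 159 in ENR and 422, 436, 461 and 467 in EN. EN lay above both other cultures without overlap, by log2 fold changes of 1.17 ± 0.05 over CV and 1.57 ± 0.05 over ENR (SE, adjusted p = 5.86e-12 and 2.62e-13). CV was above ENR by 0.40 ± 0.05. Under the 4 other scalings the rise from CV to EN lay between 0.75 and 2.16.

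In the peptide loading group, 2 of 3 members rose from CV to EN, and all 3 were higher in EN than in ENR. Tapbp measured 52.3, 45.4, 44.5 and 55.8 CPM in CV, 36.2, 43.0, 41.6 and 43.8 in ENR and 116, 107, 137 and 124 in EN. Tap2 measured 17.5, 17.9, 16.3 and 17.3 CPM in CV, 12.8, 14.2, 12.3 and 13.5 in ENR and 31.2, 25.3, 26.0 and 27.6 in EN. The log2 fold changes from CV to EN were 1.29 ± 0.09 for Tapbp and 0.68 ± 0.09 for Tap2. Tap1 overlapped between the 2 cultures, with 51.9, 43.8, 47.7 and 55.7 CPM in CV, 41.7, 51.0, 44.6 and 47.2 in EN, and 29.4, 30.4, 29.9 and 30.8 in ENR. EN differed from CV by -0.12 ± 0.08 (SE, adjusted p = 0.17), but by -0.55 with spike-in scaling (adjusted p = 0.00593) and by -0.41 on log2(TPM + 1) (adjusted p = 1.89e-04).

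Class II presentation split into a single chain that was present in CV and partners that were almost absent. H2-Ab1, the beta chain of the I-A molecule, measured 23.2, 23.2, 23.7 and 25.9 CPM in CV, 0.768, 0.327, 0 and 0.378 in ENR and 2.01, 1.28, 0.892 and 1.58 in EN. CV stood above both other cultures without overlap. From CV to EN, H2-Ab1 fell by 4.00 on the log2 scale (SE 0.25, adjusted p = 4.46e-10), and CV exceeded ENR by 5.90 ± 0.30 (adjusted p = 1.80e-10). EN exceeded ENR by 1.90 ± 0.44 (adjusted p = 0.00111). Its partner chain H2-Aa had mean CPM of 0.0331 in CV, 0.0700 in ENR and 0.297 in EN. H2-Eb1 stayed at 0.0695 to 0.201 and the peptide editor subunit H2-DMb1 at 0.315 to 0.678. The invariant chain Cd74 (NM_010545.3) measured 0.943, 0.667, 0.530 and 0.602 CPM in CV, 0.512, 1.31, 0.456 and 0.378 in ENR and 0.402, 0, 0.178 and 0.576 in EN. None of these 4 was called in any comparison. The means of H2-Aa and H2-Eb1 lay below the 3-count level, and those of H2-DMb1 and Cd74 near it.

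Ifi30, a thiol reductase of the class II pathway, measured 81.4, 72.3, 77.3 and 77.6 CPM in CV, 66.1, 59.1, 70.3 and 71.1 in ENR and 109, 111, 108 and 103 in EN. It rose from CV to EN by 0.48 ± 0.06 (SE, adjusted p = 1.24e-06). Leukocyte markers had low summed CPM. Of 10 such genes 5 had a row and 4 were tested, and their summed CPM was 10.6 to 13.9 in CV, 23.8 to 28.7 in ENR and 20.1 to 23.1 in EN. From CV to EN 2 rose and 2 fell. Ptprc (CD45) went from 0.0331 to 2.64 CPM and Itgam from 4.29 to 14.9, with 6.58 in ENR. Lcp1 went from 6.31 to 4.20 CPM, with 18.8 in ENR, and Coro1a from 1.26 to 0. Cd3e was at 0 in all libraries. Coro1a stood at 0 in every ENR and EN library. Whether leukocytes had a part in any member's level was not tested.

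H2-Ke6, an oxidoreductase that bears the H2- symbol only through its place in the locus, measured 56.1, 59.8, 55.9 and 58.3 CPM in CV, 33.0, 28.8, 29.5 and 31.6 in ENR and 57.0, 61.7, 55.1 and 54.6 in EN. CV and EN overlapped (-0.01 ± 0.06, adjusted p = 0.815), but on mRNA copies EN was higher by 0.82 (adjusted p = 0.00324).

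Ifngr1, the ligand-binding chain of the interferon gamma receptor, measured 164, 182, 170.1 and 169 CPM in CV, 211, 224, 200.3 and 211 in ENR and 327, 328, 354 and 322 in EN. The cultures did not overlap, and EN exceeded CV by a log2 fold change of 0.96 ± 0.05 (SE, adjusted p = 1.72e-11). Jak1 stood in another order, with 153, 161, 164 and 165 CPM in CV, 102, 109.6, 99.6 and 104 in ENR and 131, 124, 134 and 148 in EN. Between CV and EN, Jak1 fell by 0.26 in log2 fold change (SE 0.05, adjusted p = 2.91e-04), but stood at 0.54 on mRNA copies (adjusted p = 0.0432).

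Among 7 Stat transcripts, 3 rose from CV to EN and none fell, with 4 not called. Stat2, a factor of type I interferon signalling, averaged 23.1 ± 3.48 CPM in CV, 15.5 ± 0.749 in ENR and 29.1 ± 4.79 in EN (SD, n = 4), and was not called from CV to EN (adjusted p = 0.0173).

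Stat3, which carries signals of interleukins, was lowest in ENR. Its main transcript (NM_213659.3) measured 134, 117, 113 and 122 CPM in CV, 56.3, 60.4, 60.0 and 39.9 in ENR and 103, 114, 134 and 116 in EN. EN exceeded ENR by 1.11 ± 0.11 and CV exceeded it by 1.17 ± 0.11, while EN and CV overlapped. A second Stat3 transcript (NM_213660.3) averaged 12.1 CPM in CV, 4.62 in ENR and 8.39 in EN, without a call from CV to EN. Stat5a and Stat5b went the other way and were highest in ENR: Stat5a averaged 3.77 ± 0.951 CPM in CV, 8.49 ± 0.938 in ENR and 3.57 ± 0.567 in EN, and Stat5b had 12.6 ± 0.872, 24.5 ± 1.19 and 16.9 ± 2.5. On mRNA copies, however, Stat5b stood 0.45 higher in EN than in ENR on the log2 scale (adjusted p = 0.0347). Stat6 measured 115, 114, 115 and 127 CPM in CV, 136, 134, 135 and 138 in ENR and 177, 159.7, 168 and 176 in EN, a rise of 0.53 ± 0.04 from CV to EN.

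All 6 Irf factors were called from CV to EN, 5 up and 1 down. Irf1, which drives class I and immunoproteasome genes, measured 37.5, 41.0, 36.5 and 42.5 CPM in CV, 55.7, 50.1, 52.5 and 56.1 in ENR and 139.6, 139.8, 126 and 134 in EN. The cultures did not overlap, and EN exceeded CV by a log2 fold change of 1.78 ± 0.06 (SE, adjusted p = 2.48e-13). Irf2, which competes with Irf1 for the same element, went from 6.40 ± 1.04 in CV to 15.1 ± 0.574 in ENR and 27.1 ± 2.60 CPM in EN, a rise of 2.07 ± 0.11. Irf7, an amplifier of type I interferon, had 9.71 ± 1.31, 10.5 ± 1.52 and 24.6 ± 1.51 CPM. Irf3 measured 39.8, 41.5, 43.1 and 48.7 CPM in CV, 53.4, 45.5, 52.7 and 50.1 in ENR and 54.3, 57.4, 55.3 and 56.0 in EN, and its rise of 0.36 stood at -0.07 with spike-in scaling. Irf8 fell from 90.4 ± 4.61 in CV over 79.3 ± 2.23 in ENR to 62.4 ± 2.30 CPM in EN, and stood at 0.23 on mRNA copies.

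**Figure D3:**
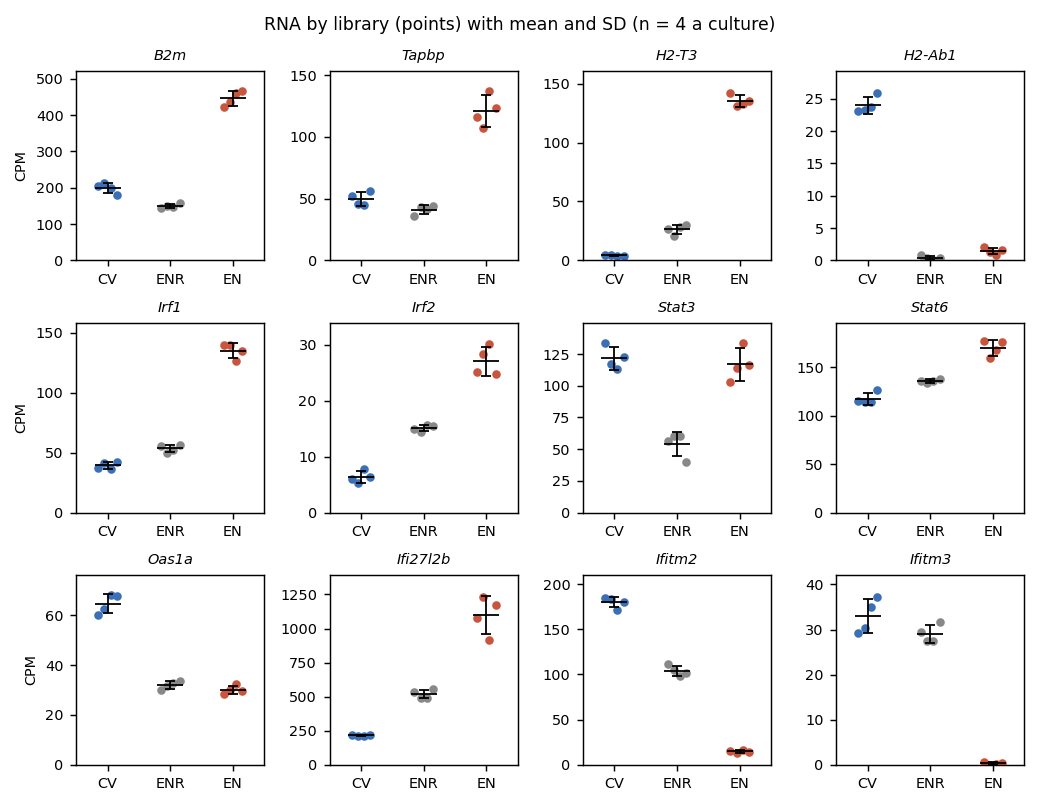
CPM in each library of 12 members (points), with the mean and SD of the 4 libraries per culture and an axis from 0 in each panel. B2m, Tapbp, H2-T3, Irf1 and Irf2 are highest in EN, H2-Ab1 and Oas1a in CV, Stat3 is lowest in ENR, and Ifitm2 and Ifitm3 are lowest in EN.

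The Oas family, whose active enzymes sense double-stranded RNA and switch on RNase L, did not move together: from CV to EN 2 rose, 1 fell and 2 were not called. Oas1a measured 60.2, 62.7, 68.0 and 67.8 CPM in CV, 29.8, 31.7, 32.8 and 33.5 in ENR and 28.5, 30.0, 32.3 and 29.8 in EN. Oas1a fell by 1.10 on the log2 scale (SE 0.06, adjusted p = 1.65e-10), and ENR and EN overlapped. Oasl1 measured 15.8, 17.1, 16.6 and 20.2 CPM in CV, 10.1, 10.6, 10.8 and 9.31 in ENR and 25.5, 26.1, 28.0 and 24.3 in EN. Oas3 measured 9.97, 7.07, 6.63 and 7.35 CPM in CV, 9.22, 9.65, 7.74 and 10.8 in ENR and 11.8, 12.4, 16.2 and 8.93 in EN. The rise of Oas3 (adjusted p = 0.00385) was not called without CV2, CV3, CV4 or EN3 (log2 fold changes of 0.62, 0.59, 0.64 and 0.50), nor with spike-in scaling (0.24) or on log2(TPM + 1) (0.26). Oasl2 averaged 4.86 ± 1.47 CPM in CV, 4.03 ± 0.493 in ENR and 6.68 ± 0.941 in EN (SD, n = 4) and was not called, and neither was Oas2, whose means of 0, 0.135 and 0.103 CPM lay under the 3-count level.

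The guanylate binding proteins, which attack vacuoles of microbes, were low, and all 7 averaged under 1 TPM over the 12 libraries. Gbp7 measured 5.26, 5.61, 4.90 and 4.94 CPM in CV, 3.46, 2.29, 2.73 and 3.02 in ENR and 2.55, 3.21, 3.75 and 1.87 in EN, and its EN level was lower than CV, with a log2 fold change of -0.88 (SE 0.22, adjusted p = 0.0017). Gbp5 measured 1.75, 2.14, 1.99 and 0.723 CPM in CV, 1.15, 1.80, 1.52 and 2.14 in ENR and 1.47, 4.71, 3.39 and 1.30 in EN, without a call. Gbp9 measured 0.135, 0.534, 0.265 and 0.361 CPM in CV, 1.41, 0.327, 0.456 and 1.13 in ENR and 1.21, 0.428, 1.07 and 0.720 in EN. Gbp8 was called (adjusted p = 9.01e-04) on 1 count in CV against 16 in EN, a ratio of 19.9 with a 95% counting interval from 3.10 to 836. By library, Gbp8 stood at 0, 0, 0.133 and 0 CPM in CV, 0.384, 0.164, 0.304 and 0.252 in ENR and 0.804, 0.214, 1.07 and 0.432 in EN. Gbp2, Gbp3 and Gbp6 averaged 0.0635 to 0.578 CPM in each culture, without a call from CV to EN. No Gbp member was called between EN and ENR.

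Of 12 transcripts of Isg15 and the Ifi genes, 9 rose from CV to EN, 2 fell and 1 was not called. Ifi27l2b, by TPM the second most abundant member with a mean of 900.4 TPM, measured 222, 214, 214 and 219 CPM in CV, 538, 489.7, 494 and 554 in ENR and 1078, 1233, 913 and 1171 in EN, a rise of 2.34 ± 0.08 (SE, adjusted p = 2.20e-13). Ifi35 measured 55.8, 52.1, 56.3 and 52.0 CPM in CV, 50.6, 50.4, 51.5 and 55.9 in ENR and 125, 134, 129 and 137 in EN. CV and ENR overlapped there, and EN lay above both. The Ifit proteins bind foreign RNA ends: Ifit1 went from 7.16 ± 0.368 in CV to 14.3 ± 1.80 CPM in EN, Ifit3 from 1.75 ± 0.573 to 6.98 ± 1.32 and Ifit1bl2 from 27.4 ± 0.876 to 89.1 ± 3.22. Ifih1 (MDA5), a sensor of viral RNA, went from 52.6 ± 2.80 to 70.5 ± 6.74. Ifi47 rose from 1.05 ± 0.637 CPM in CV over 2.74 ± 0.890 in ENR to 4.17 ± 1.13 in EN. Isg15, a ubiquitin-like protein and a classical marker of interferon signalling, was low, with 0.693 ± 0.398 CPM in CV, 0.670 ± 0.566 in ENR and 2.05 ± 0.806 in EN, and was not called (adjusted p = 0.0216).

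The Ifit1bl1 transcripts NM_001101605.1 and NM_001110517.1 share reads and are uncertain one by one. The first measured 6.74, 0, 2.78 and 1.33 CPM in CV, 8.83, 6.87, 7.59 and 12.3 in ENR and 14.9, 8.78, 22.7 and 12.7 in EN. The second measured 0, 2.54, 0 and 0.964 CPM in CV, 2.69, 12.8, 7.90 and 4.28 in ENR and 14.9, 21.0, 14.6 and 16.1 in EN. Both rose from CV to EN, by 2.46 ± 0.54 and 4.21 ± 0.62 on the log2 scale.

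Ifitm2 and Ifitm3, membrane proteins that block viral entry, were the members of this group that fell. Ifitm2 measured 185, 184, 172 and 180.0 CPM in CV, 111, 104, 97.9 and 102 in ENR and 15.1, 13.5, 16.6 and 14.1 in EN. Ifitm3 measured 29.2, 30.3, 35.0 and 37.1 CPM in CV, 29.4, 27.5, 27.5 and 31.7 in ENR and 0.670, 0, 0.178 and 0.432 in EN. EN lay far below both other cultures, which overlapped for Ifitm3. From CV to EN, Ifitm2 fell by 3.60 (SE 0.06, adjusted p = 1.95e-16) and Ifitm3 fell by 6.43 on the log2 scale (SE 0.24, adjusted p = 9.62e-13). Their counts were not whole in 9 of 12 libraries, so that reads may be split between the pair, but both fell under the 4 other scalings.

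Members with the exact ISRE letters in their promoter moved in both directions from CV to EN. Of the 18, 8 rose (B2m, Ifih1, Ifit1, Ifit1bl1, Ifit1bl2, Ifit3, Irf2 and Oas3), 4 fell (Gbp7, Ifitm2, Ifitm3 and Oas1a), H2-T23 had transcripts both ways and 5 were not called. The matches of Ifit1 and Ifit1bl2 are the same bases read from opposite strands, so they are not independent. Of the 28 members whose promoter lacked the exact ISRE letters, 15 rose, 4 fell and 9 were not called. Variants of the element were not searched, so these 28 may include promoters that hold one. Of the 9 with the exact GAS letters, 3 rose, 5 fell and 1 was not called. Among the 37 without the GAS letters, 20 rose, 3 fell, 1 had transcripts both ways and 13 were not called. Over all transcripts 35.2% rose and 41.2% fell. Whether either element had a part in these changes was not tested.

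Genes that work beside the members, in lists of related pathways, were counted in the same fit, in which 35.2% of all transcripts rose and 41.2% fell from CV to EN. All 5 measured genes of the immunoproteasome and of peptide trimming rose from CV to EN. Psmb10, a catalytic subunit, went from 16.4 ± 1.45 to 115 ± 3.57 CPM (SD, n = 4), the proteasome activator Psme1 from 64.9 ± 3.82 to 198 ± 15.1 and the catalytic subunit Psmb8 from 8.54 ± 0.434 to 20.1 ± 1.24. Of 6 genes of folding in the endoplasmic reticulum and class I assembly, not all of them chaperones, 4 were lower in EN than in CV and none was higher. Pdia6 went from 388 ± 10.8 to 166 ± 18.6, Canx (calnexin) from 1186 ± 34.4 to 915 ± 47.6 and Calr (calreticulin) from 777 ± 20.0 to 605 ± 44.7 CPM. Pdia3 was not called, with 157 ± 23.3 CPM in CV and 158 ± 14.8 in EN.

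Of 6 class II proteases, 1 rose and 4 fell. Ctss (cathepsin S), which trims the invariant chain, went from 8.74 ± 0.530 CPM in CV over 58.7 ± 1.37 in ENR to 143 ± 3.77 in EN, while Lgmn went from 200.5 ± 9.00 to 34.1 ± 0.812 and Ctsl from 162 ± 8.22 to 36.0 ± 5.02. Of 7 factors of class II transcription 2 rose and 4 fell. Nfyb stood at 59.5 ± 4.01 in CV and 28.2 ± 0.895 CPM in EN, while Rfxank rose from 14.8 ± 0.590 to 28.3 ± 2.34 CPM. Of 7 measured interferon receptors, kinases and inhibitors 5 rose and 1 fell, among them Ptpn6, an inhibitory phosphatase, which went from 18.7 ± 0.720 to 51.3 ± 5.56 CPM, Il10rb, which went from 53.9 ± 2.01 to 146 ± 4.53 CPM, and Jak2, from 132 ± 4.54 to 232 ± 9.92. Of 29 tested transcripts of other interferon-stimulated genes, 12 rose, a share near that of all transcripts (35.2%), and 3 fell, fewer than the 41.2% of all. Parp14 rose from 13.4 ± 0.464 to 91.5 ± 2.71 CPM, while Bst2 (tetherin) went from 14.9 ± 2.26 to 1.20 ± 0.487 and Tmem173 (STING) from 7.47 ± 2.09 to 0.193 ± 0.132.

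Chromatin was compared at regions within 500 bp of the start sites of members, on normalized scores that were rounded to whole numbers (build mm9). A total of 76 such regions lay at 52 of the 59 gene symbols. A region was called at an adjusted p under 0.05 in limma on log2(score + 1) over all regions. In ATAC-seq, which measures open chromatin, 24 of the 76 regions changed from CV to EN, 19 up and 5 down, close to the 35.2% of all regions and 34.5% of all start-site regions that changed. By direction, all regions gave 19.6% up and 15.6% down, and start-site regions 18.6% and 15.9%. In H3K27ac, a mark of active promoters and enhancers, 16 changed, 14 up and 2 down, against 7.03% of all regions and 19% of start-site regions (5.07% up and 1.96% down of all, 15.4% and 3.55% at start sites). In H3K4me3, a mark of active promoters, 4 of 75 changed, 3 up and 1 down, against 4.9% of all regions and 9.6% at start sites (2.75% up and 2.15% down of all, 4.21% and 5.39% at start sites). These splits depend on scaling. With quantile normalization, which gives every library the same distribution of scores, 12 regions rose and 8 fell in ATAC. In H3K27ac it gave 3 up and 2 down, and in H3K4me3 1 up and 3 down.

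The calls of the histone marks moved with single libraries. Without the CV replicates 3 and 5 or the EN replicates 2, 3 and 4, left out one at a time, the H3K27ac count was 10, 9, 6, 5 and 5. Without the trend of the spread, limma called 0 regions in H3K27ac, and 19 had an unadjusted p under 0.05. For H3K4me3 the count was 2 without CV2, CV4, ENR1 or ENR2, 8 without EN1 and 1 without EN2. For H3K27me3, a mark of Polycomb repression, limma called 0 of the 76 regions, and 5 had an unadjusted p under 0.05. On simulated data the fits recovered 44% of 2-fold and 98% of 4-fold changes in ATAC, and 12% and 52% in H3K27ac. For H3K4me3 these were 26% and 66%, and for H3K27me3 0% and 6%. In these simulations only a small share of regions was changed, all with a mean score of at least 5. In the real ATAC data 35.2% of regions were called, and only 54 of the 76 member regions reached that mean. The recovered shares are therefore not the power in the real data. Many 2-fold changes were missed in the simulations of every dataset, and a count of 0 in H3K27me3 carries little weight. In H3K27me3, 0.528% of all regions were called (0.14% up and 0.388% down), and of those at start sites 0.37% (0.282% up and 0.0885% down).

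H2-T3 rose in ATAC, H3K4me3 and H3K27ac at its start site (chr17:36326337-36327468, mm9). ATAC scores were 54, 60, 56 and 77 in CV, 118, 123, 102 and 112 in ENR and 200, 195, 138 and 229 in EN. H3K4me3 scores were 15, 18 and 22 in CV, 20, 22 and 23 in ENR and 71, 77 and 112 in EN, and H3K27ac scores were 94, 62 and 85, then 54, 43 and 48, then 161, 142 and 153. ATAC was in the same order as the RNA, whereas in H3K4me3 ENR overlapped CV. The log2 differences from CV to EN were 1.60 ± 0.14 in ATAC, 2.17 ± 0.21 in H3K4me3 and 0.93 ± 0.27 in H3K27ac (SE, limma, adjusted p = 1.94e-07, 0.00104 and 0.0275). H3K27me3 scores were 8, 13 and 7 in CV, 18, 13 and 27 in ENR and 28, 32 and 28 in EN, without a call (adjusted p = 0.358).

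Other class I genes changed in H3K27ac. At H2-Bl (chr17:36220061-36221520) H3K27ac scores were 78, 37 and 32 in CV, 63, 41 and 53 in ENR and 177, 170 and 182 in EN, a log2 difference of 1.94 ± 0.31 from CV to EN (SE, limma, adjusted p = 7.82e-05). At B2m (chr2:121973098-121974942) they were 54, 99 and 49 in CV, 107, 65 and 95 in ENR and 183, 144 and 198 in EN, a difference of 1.42 ± 0.28. B2m was not called in ATAC, with scores of 91, 89, 86 and 106 in CV, 89, 85, 102 and 119 in ENR and 82, 94, 117 and 131 in EN (0.17, adjusted p = 0.406). Regions of Tapbp, Tap1, H2-K1 and H2-T23 were called up in H3K27ac too. Of all 76 member regions, H2-T3 included, 14 were called up in H3K27ac. With quantile normalization 3 were, and with the replicate as a block or without the trend 0 were. Most of these rises thus depend on the processing. Summed H3K27ac scores over all regions were 1622103 to 1760511 in EN libraries and 1345873 to 1406651 in CV libraries. The Tap1 region also holds the start of Psmb9 and 1 of the Tapbp regions that of Zbtb22, so that their signals cannot be told apart. Tap1 was called in H3K27ac but not in RNA.

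Ifitm2, Ifitm3 and H2-Ab1 lost signal. At Ifitm2 (chr7:148140919-148142176) ATAC scores were 43, 47, 40 and 69 in CV, 45, 41, 43 and 40 in ENR and 16, 6, 7 and 8 in EN, a fall of 2.37 on the log2 scale (SE 0.24, adjusted p = 5.87e-07). Its H3K27ac scores were 234, 185 and 91, then 59, 188 and 93, then 53, 56 and 51. At Ifitm3 (chr7:148196028-148196775) H3K27ac scores were 41, 38 and 22 in CV, 20, 12 and 17 in ENR and 7, 5 and 15 in EN. At H2-Ab1 (chr17:34400035-34401222) H3K4me3 scores were 35, 49 and 46 in CV, 17, 12 and 16 in ENR and 9, 13 and 23 in EN, a fall of 1.55 (SE 0.32, adjusted p = 0.0358). This fall was not called with the replicate as a block, nor without CV2, CV3, CV4, ENR1, ENR2, ENR4 or EN2, left out one at a time. ATAC scores at H2-Ab1 were 16, 21, 22 and 30 in CV, 14, 16, 8 and 12 in ENR and 6, 17, 14 and 12 in EN, and overlapped by 1 library. H3K27me3 there was 3, 10 and 24 in CV, 35, 58 and 42 in ENR and 19, 18 and 25 in EN, without a call (adjusted p = 0.634).

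Other calls were at genes of the interferon pathway. The Ifit3 start site opened from ATAC scores of 0, 1, 1 and 0 in CV to 2, 3, 2 and 2 in ENR and 7, 6, 5 and 4 in EN, all low values. At Jak1 ATAC scores were 122, 102, 85 and 93 in CV, 123, 118, 114 and 124 in ENR and 158, 152, 186 and 152 in EN, a rise where its RNA in CPM fell. H3K27ac at Stat3 was 131, 82 and 97 in CV, 138, 180 and 139 in ENR and 210, 237 and 230 in EN, while Stat3 RNA was not called.

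Among the Irf factors, Irf2 (chr8:47824522-47827320) was called up in H3K4me3, with scores of 152, 155 and 167 in CV, 200, 197 and 219 in ENR and 212, 287 and 225 in EN, and in H3K27ac. The start of Gm16675 lies in the same region. Irf1 had ATAC scores of 51, 53, 49 and 53 in CV, 44, 46, 34 and 46 in ENR and 35, 62, 49 and 51 in EN, and was called in none of the 4 datasets. The third H3K4me3 region called up, at Stat3, had a score of 0 in every CV library and 1 in every EN library, which is the smallest step the rounded table can show.

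**Figure D4:**
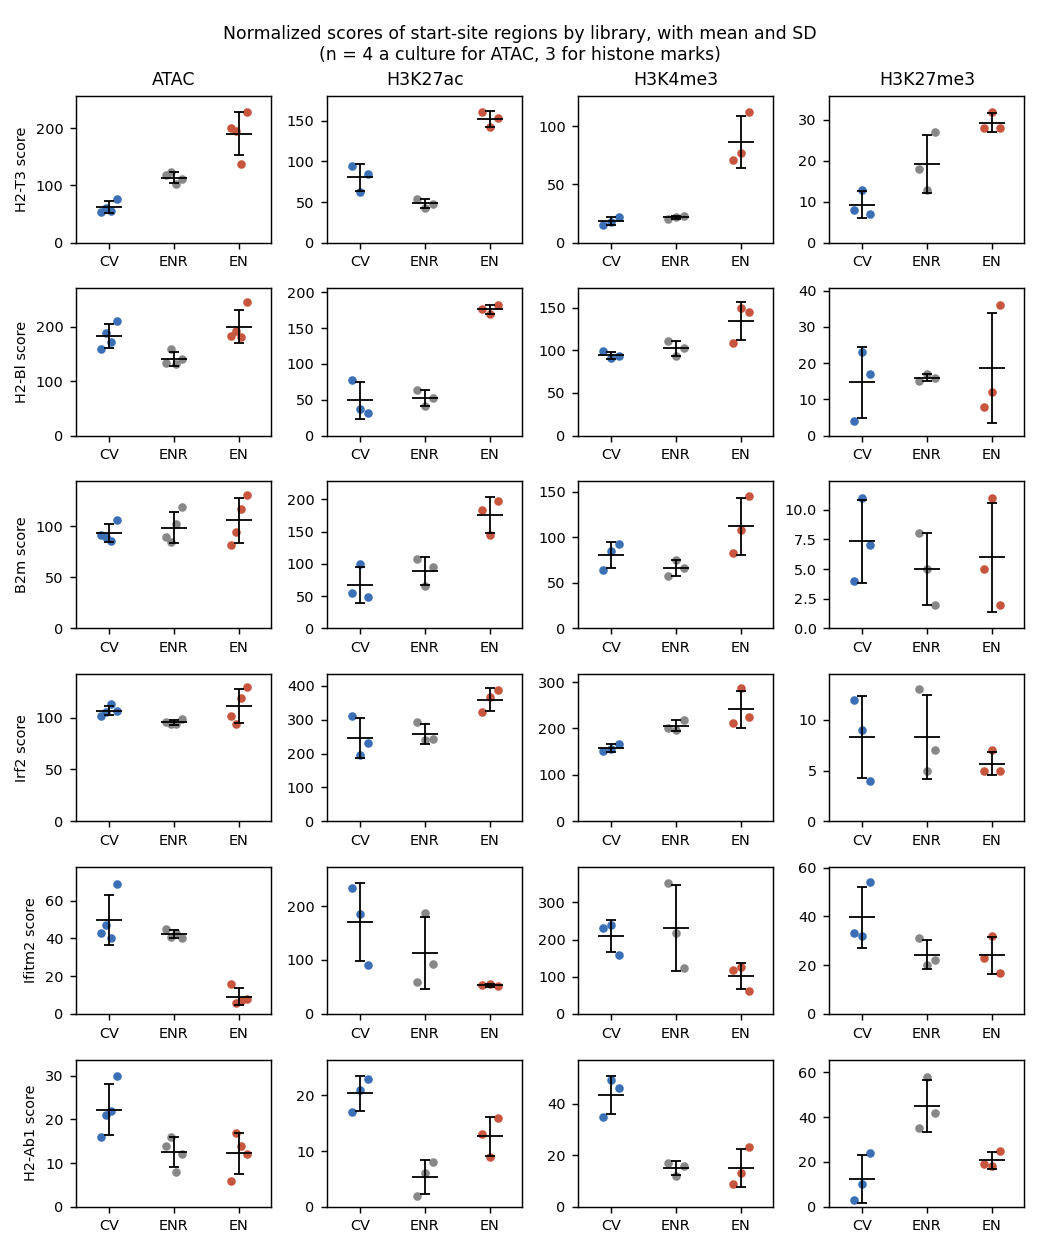
Normalized scores (points) of the start-site regions of 6 members in ATAC-seq and 3 histone marks, with mean and SD per culture and an axis from 0 in each panel. H2-T3 rises in the ATAC, H3K27ac and H3K4me3 panels, H2-Bl and B2m in H3K27ac, and Ifitm2 falls in ATAC, with EN scores of 16, 6, 7 and 8.

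Hnf4g, a nuclear receptor of enterocytes, was profiled in 1 library per culture, so that no test was possible, and the libraries differed widely in depth, with 84340 reads in regions in CV, 352600 in ENR and 1816497 in EN. Start sites of members held 0.240% of the reads in CV (95% exact binomial interval from 0.208% to 0.275%), 0.234% in ENR (0.218% to 0.250%) and 0.363% in EN (0.354% to 0.372%). Intervals cover counting error only. Per region this was 31.5, 30.8 and 47.7 RPM (reads scaled to a common library total), where all start-site regions had 22.0, 22.8 and 32.1. The 5 member regions with the most reads in EN lay at class I genes, but at other class I genes the RPM went down. H2-Bl had 24, 57 and 830 reads in CV, ENR and EN, or 285, 162 and 457 RPM. H2-T3 had 8, 49 and 604 reads, or 94.9 RPM in CV (exact Poisson interval 41.0 to 187), 139 in ENR (103 to 184) and 333 in EN (307 to 360.1). H2-K1 had 119, 133 and 377 RPM, H2-D1 94.9, 159 and 318, and H2-Q2 189.7, 130.5 and 226. H2-Q10, with 21, 48 and 68 reads, went from 249 RPM in CV (154 to 381) and 136 in ENR to 37.4 in EN (29.1 to 47.5). H2-Q8, with 9, 22 and 47 reads, went from 107 (48.8 to 203) and 62.4 to 25.9 (19.0 to 34.4). The paper describes Hnf4g binding in CV as nearly absent, and RPM is a share of each library's reads. A lower RPM in EN therefore cannot be read as lost binding. H2-T23 had 94.9, 39.7 and 74.9 RPM, with overlapping intervals in CV and EN.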

How the data were processed

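RNA and chromatin of CV, ENR and EN organoids were compared, with groups taken from the labels. The authors aligned ribosome-depleted, stranded reads with kallisto (0.43.0 in the processing notes, another version in the methods) to RefSeq transcripts with a quantified protein, and deposited estimated counts, TPM and an mRNA copy number signal set by spike-ins. For chromatin, the authors aligned to mm9 with BWA, removed duplicates with Picard, called peaks with MACS2 2.0 and deposited normalized scores, rounded to whole numbers, over the union of 94469 regions. For H3K27me3, the methods state that peaks were extended to 1000 bp. The deposited Hnf4g values are raw read counts.

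Members and lists were chosen with earlier results of these data known. Estimated counts were rounded and tested with edgeR 4.0.16 (quasi-likelihood, TMM, one fit of all 12 libraries), for transcripts with a count in at least 4 libraries, and p-values were adjusted by Benjamini-Hochberg over all 9288. Region scores were tested with limma 3.58.1 with a trend, on log2(score + 1), where at least 3 libraries were above 0. Start sites came from GENCODE vM1. Given with every library are the 3 members of each role with the highest TPM, the 5 largest rises and falls, and symbols whose transcripts went both ways. Other tested members appear at least by culture means, and 2 members are counted but not reported by name here. Of related lists up to 3 genes with the largest change are named. Alternatives were DESeq2 1.42.0 (test and size factors), spike-in scaling, TPM, mRNA copies, filters, a replicate block and leaving out each library. Both fits were tested on simulated data, where the RNA fit recovered 87% of 1.5-fold and 91% of 2-fold changes and the region fits fewer 2-fold ones. Only a small share of transcripts or regions was changed there, so these values are not the power in the real data. Python 3.11.15 with scipy 1.17.1 gave exact intervals at 95%.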

Additional observations from a re-analysis of the deposited data

Results flagged for a closer look

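Each group of 4 libraries was examined for 1 library far from the other 3, by the gap to its neighbour over the range of the group. Of 126 groups, 5 passed Dixon's 95% critical value, where chance passes about 5% of groups. In CV, Stat6 stood at 127 CPM in 1 library (others 114 to 115) and Gbp8 at 0.133 (others 0). In EN, Ifngr1 stood at 354 CPM in 1 library (others 322 to 328). In ENR, Cd74 (NM_010545.3) stood at 1.31 CPM in 1 library (others 0.378 to 0.512), and the Irf1 start site had an ATAC score of 34 (others 44 to 46).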

How the results depend on the processing

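Counts of called members kept within 1.5 times of the values given under most alternatives. Exceptions in RNA were 15 members changed at least 2-fold from CV to EN on log2(TPM + 5), and, between EN and ENR, 24 members with spike-in scaling and, at least 2-fold, 12 with spike-in scaling, 14 on log2(TPM + 5) and 44 on mRNA copies. Between CV and ENR, mRNA copies gave 25. Leaving out 1 library gave 42 to 44 members from CV to EN (24 to 25 at least 2-fold), 37 to 40 between EN and ENR (21 to 23) and 37 to 40 between CV and ENR (15 to 19). Direction depends on scaling: between EN and ENR spike-ins gave 17 higher and 7 lower and mRNA copies 48 and 2. Between CV and ENR they gave 17 and 10, and 21 and 4. At least 2-fold, CV against ENR gave 12 and 4 on log2(TPM + 1), 10 and 2 on log2(TPM + 5) and 14 and 3 on mRNA copies, and EN against CV gave 9 and 6 on log2(TPM + 5).

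Some members turned direction from CV to EN. With spike-in scaling H2-K1 stood at -0.24 and Irf3 at -0.070. H2-K1 stood at -0.14 on log2(TPM + 1) and at -0.14 on log2(TPM + 5). On mRNA copies H2-D1 stood at 0.27, H2-Ke6 at 0.82, the second H2-T23 transcript at 0.19 and Jak1 at 0.54. The causes were not tested.

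At an adjusted p under 0.01, called regions numbered 11 in ATAC, 6 in H3K27ac and 2 in H3K4me3. H3K27ac had 0 without the trend of the spread (limma, with 19 at an unadjusted p under 0.05) and 5 with quantile normalization. Leaving out 1 library gave 17 to 24 regions in ATAC, 5 to 15 in H3K27ac and 1 to 8 in H3K4me3, and 0 were called in H3K27me3 under every alternative tried.

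Samples of the same replicate number correlated in their deviations by 0.013 on average in RNA. In ATAC all 12 such pairs were positive (mean 0.170, from 0.0695 to 0.460, against -0.0557 for other pairs), 8 were over 0.1 and 9 of 12 libraries correlated best with their own number. Since the labels give no shared origin and not every pair was over 0.1, the numbers were not taken as pairing the samples. With the replicate as a block, 44 members changed from CV to EN (24 at least 2-fold), 39 between EN and ENR (23) and 39 between CV and ENR (18), and the block gave 24 regions in ATAC, 0 in H3K27ac (limma, with 23 at an unadjusted p under 0.05) and 2 in H3K4me3.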
